A study of Mus musculus with 6 samples.

Results

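The antioxidant and glutathione enzymes were 72 genes measured by 101 of the 55681 probes of an Agilent mouse array other than controls, out of 36163 gene names that the array carries. They were taken by name: the glutathione S-transferases (*Gsta*, *Gstm*, *Gstp* and the other classes with a number), the glutathione peroxidases, the peroxiredoxins, *Sod1* to *Sod3*, each gene whose name starts with *Txn*, and *Cat*, *Hmox1*, *Hmox2*, *Nqo1*, *Gclc*, *Gclm*, *Gss*, *Gsr*, *Srxn1*, *Glrx*, *Glrx2*, *Nfe2l2* and *Keap1*. RNA came from the hearts of 3 male C57BL/6 mice fed a standard chow (normal diet, ND) and of 3 fed a high fat diet with 60% of kcal from fat (HFD), for 4 months from an age of 4 weeks. The mice carried no engineered allele that the labels name, and each array held the RNA of 1 heart. In whole heart RNA, fewer cells of a type and less RNA per cell cannot be told apart.

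These enzymes form a chain that disposes of reactive oxygen. Superoxide dismutases turn superoxide into hydrogen peroxide, which catalase, the glutathione peroxidases and the peroxiredoxins then break down. Glutathione peroxidases spend glutathione, made by *Gclc*, *Gclm* and *Gss* and recycled by glutathione reductase (*Gsr*), whereas peroxiredoxins draw on thioredoxin and its reductases. Glutathione S-transferases couple glutathione to reactive compounds, among them products of lipid peroxidation, and the transcription factor NRF2 (*Nfe2l2*), held in check by KEAP1, drives many of these genes. The heart is rich in mitochondria, and oxidation of fatty acids in mitochondria and peroxisomes is a known source of peroxide there.

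In the HFD-fed hearts, catalase was higher, while *Gpx1*, mitochondrial thioredoxin (*Txn2*) and 6 glutathione S-transferases of the alpha, mu, kappa and omega classes (*Gsta3*, *Gstm6*, *Gstm7*, *Gstk1*, *Gsto1* and *Gsto2*) were lower. The differences were small, from −0.65 to 0.43 on the log2 scale, and no member differed by as much as 2-fold. All of these passed limma's test only at an unadjusted p below 0.05, called the unadjusted test from here on. None of the 89 member probes tested passed the Benjamini-Hochberg adjustment over all 27590 probes tested, which 0.0145% of all probes did. The lowest adjusted p of a member was 0.136.

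By probes, 16 of 89 members (17.98%) passed the unadjusted test, against 11.9% of all probes tested. Of these, 2 were higher in HFD and 14 lower, and over all probes 5.24% were called higher and 6.63% lower. Several of the 16 are probes of the same gene. With the brightest probe standing for its gene, 9 of 65 genes tested were called, against 11.98% of all genes, which is near the background and no result about the members as a group. The hearts of the diets did not overlap on 24 of 89 member probes (27.0%), against 19.0% of all probes. By genes these were 16 of 65 (24.62%), against 19.54% of all genes. The median log2 fold change of the 65 genes was −0.04, beside −0.01 over all genes. Of the 65, 41 (63.08%) were lower in HFD, against 53.25% of all genes. After quantile normalization 35 of 65 were lower.

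Levels are given as the log2 intensity of the probe minus the 75th percentile of its array, so that a level of 0 is that percentile. A log2 fold change is the HFD mean minus the ND mean. Levels of different probes are not compared, since each probe binds with its own strength.

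The probes of 6 genes are shown because the comparison turns on them: catalase is the called increase, *Gstm6* the largest called decrease, and *Gpx1*, *Gsta3*, *Gstm7* and *Gstk1* are the decreases that held best. By their brightest probes, *Cat*, *Gpx1*, *Gstm7* and *Gstk1* passed the unadjusted test under all of 18 other settings of the processing. *Gsta3* passed under 18 by its second probe and 17 by its brightest. Each line gives the first 30 of the 60 bases of the brightest probe, as the files give it from 5′ to 3′, with the position of the whole probe on the mouse build mm9. No base is marked by capitals. The files do not say in which exon or untranslated region a probe lies.
Cat, chr2:103294487-103294546, minus strand: tggtctggtatatatacaatacaacacaca
Gpx1, chr9:108242276-108242335, plus strand: actgcgctcatgaccgaccccaagtacatc
Gsta3, chr1:21255189-21255248, plus strand: tgacgaggaacggccggatgctctctagtt
Gstm6, chr3:107741766-107741825, minus strand: ccatctccagagtgggaaggcccagtcttg
Gstm7, chr3:107732073-107733247, minus strand: atcagcttatggacaaccgcatggtgctgg
Gstk1, chr6:42200381-42200440, plus strand: acaagtgccttttgaaaagccttaaattct
The *Gstm7* probe is placed over 1175 bases, far more than its own 60, so that its match to the genome is split. For the other 5 the position is as long as the probe.

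**Figure D1:**
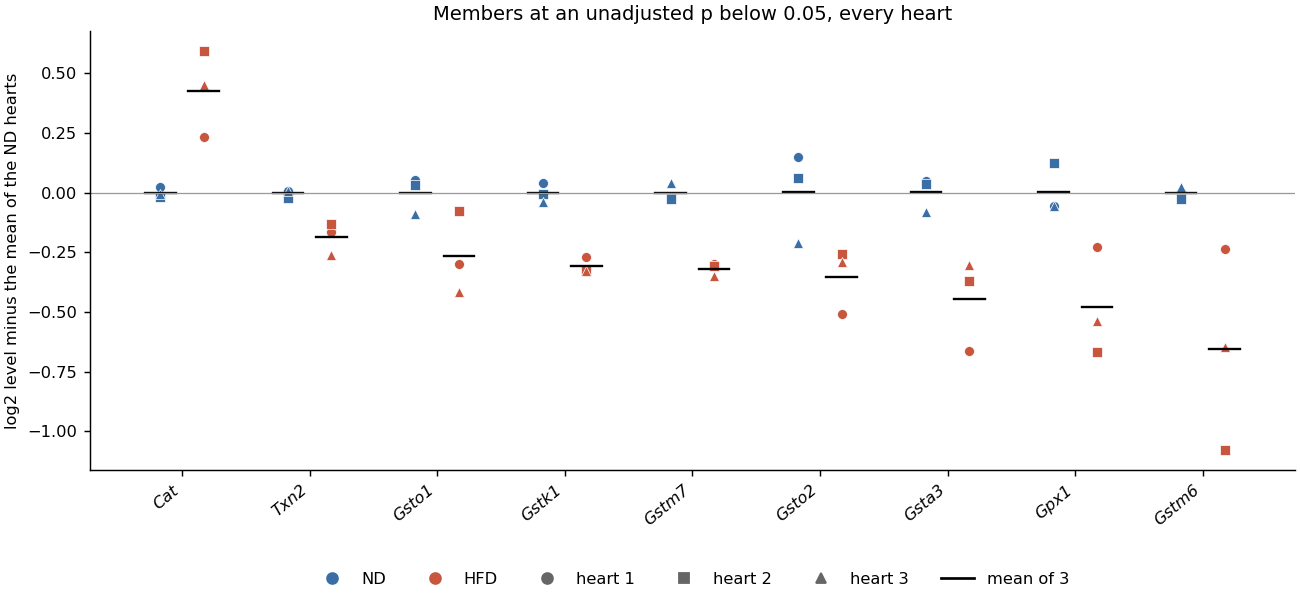
The level of each called gene in every heart on the log2 scale, as the distance from the mean of the 3 ND hearts, with blue for ND, red for HFD, a shape for each heart number and a black line for each mean. All 3 HFD hearts lie above the ND hearts for *Cat* and below them for the other genes, except *Gsto1*, for which HFD 2 (6.97) lies above ND 3 (6.96).

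Catalase, the peroxisomal enzyme that splits hydrogen peroxide without glutathione, stood at 3.14, 3.10 and 3.11 in ND 1 to 3 and at 3.35, 3.71 and 3.57 in HFD 1 to 3. The ND hearts lay close together (SD 0.02, n = 3) and each HFD heart was above all of them. This log2 fold change of 0.43 (SE 0.10), which is 1.34-fold, had a limma adjusted p = 0.253. A second probe of *Cat*, which lies elsewhere in the gene, gave levels of 1.11, 1.03 and 0.99 in ND and of 1.32, 1.66 and 1.47 in HFD. It moved by 0.44 (SE 0.10), so that both probes separated the diets in the same way.

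The superoxide dismutases, 1 step upstream, did not pass the test. *Sod2*, the mitochondrial enzyme, stood at 8.33, 8.38 and 8.35 in ND against 8.27, 8.48 and 8.13 in HFD, and the HFD hearts lay on both sides of the ND hearts. Its log2 fold change of −0.06 had a 95% interval from −0.31 to 0.19. *Sod1*, the cytosolic enzyme, stood at 7.5, 7.51 and 7.4 in ND against 7.4, 7.74 and 7.49 in HFD, with overlapping diets and an interval from −0.18 to 0.33. *Sod3*, the secreted enzyme, was 3.80, 3.77 and 3.81 in ND and 4.44, 3.84 and 4.01 in HFD. Its diets did not overlap, but the 3 HFD hearts differed widely (SD 0.31 against 0.02 in ND), and the log2 fold change of 0.30 (SE 0.16) had an interval from −0.08 to 0.69. Without HFD 2, the heart nearest to ND, *Sod3* passed the unadjusted test with a log2 fold change of 0.43.

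**Figure D2:**
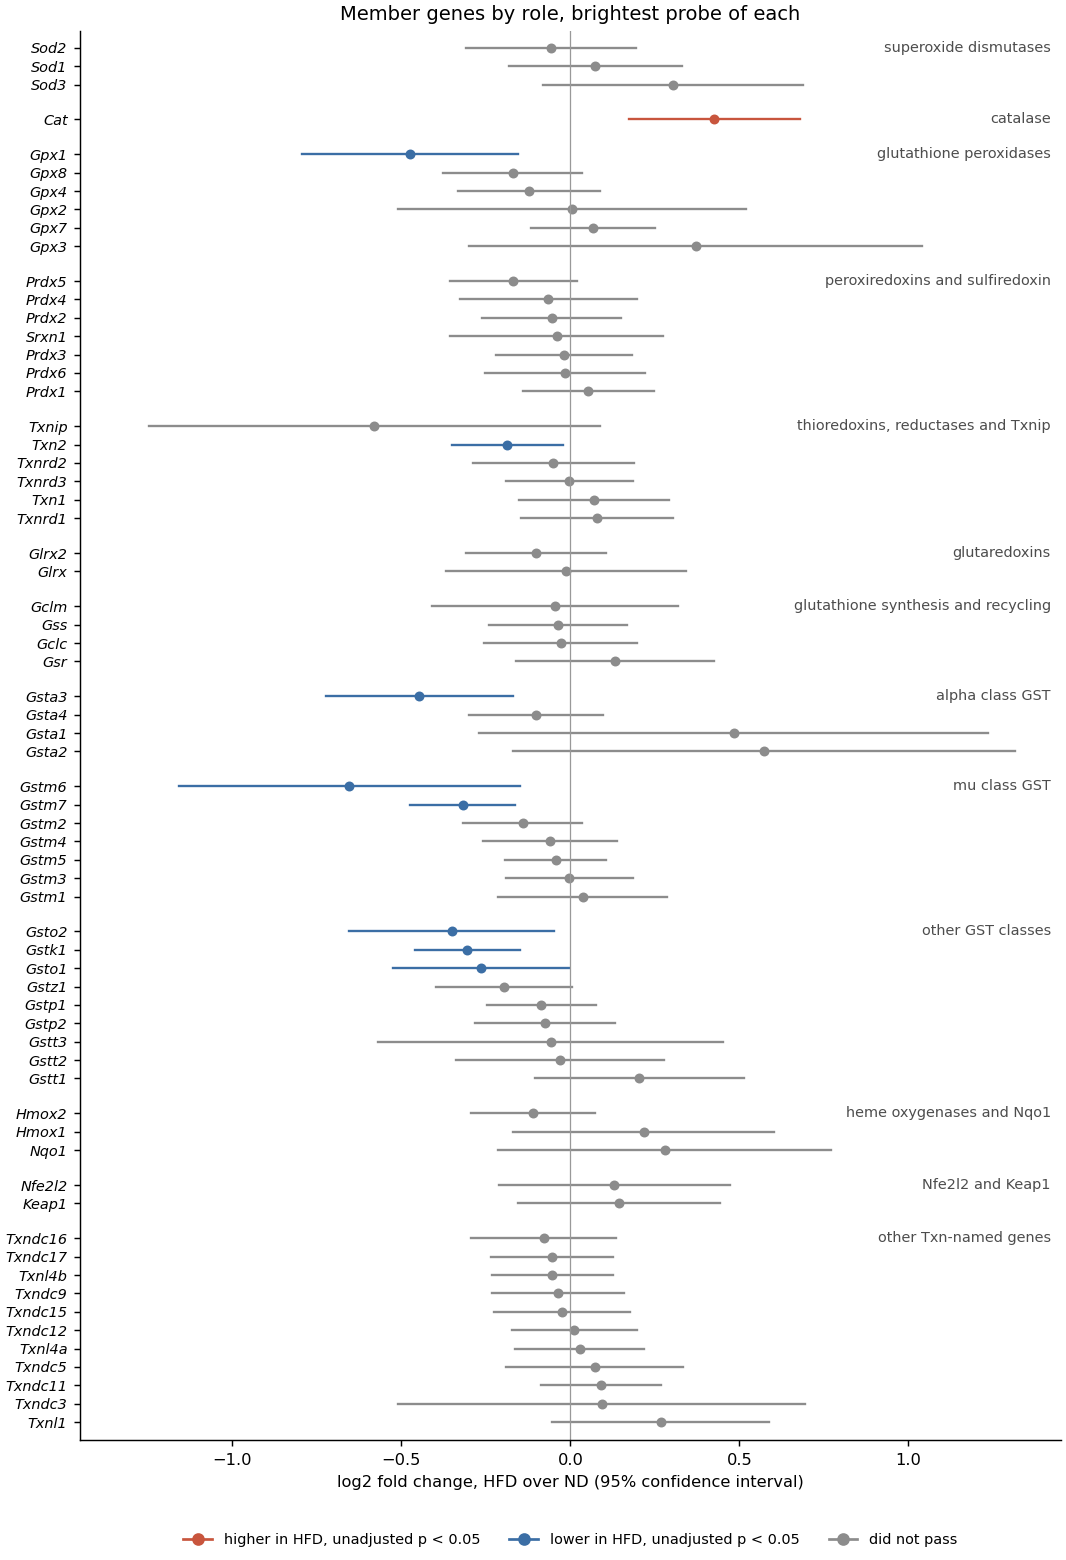
The log2 fold change of HFD over ND for the brightest probe of each of the 65 genes tested, grouped by role, with 95% confidence intervals as lines. *Cat* is the gene called higher (red) and 8 genes are called lower (blue), while the intervals of the other 56 genes (grey) cross 0.

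Among the glutathione peroxidases, which reduce peroxides with glutathione, 1 of 6 genes tested was called, beside 11.98% of all genes. *Gpx1*, the widespread cytosolic and mitochondrial form, stood at 5.68, 5.86 and 5.68 in ND against 5.51, 5.07 and 5.20 in HFD. Every HFD heart was below every ND heart, HFD 1 by the least. HFD minus ND was −0.47 on the log2 scale (SE 0.13), so that the ND hearts were 1.39-fold higher, with limma adjusted p = 0.285. Without HFD 2, the lowest heart, it was −0.38. *Gpx1* is abundant in red blood cells, as are catalase and *Prdx2*. Of 10 erythroid marker genes tested, 9 were lower in HFD, 6 of them called, and 1 was called higher. This share of 70% called stands beside 11.98% of all genes, of which 53.25% were lower. The level summed over the 10 ran from 10.18 to 10.41 in ND and from 9.71 to 10.06 in HFD. *Cat* was higher in the HFD hearts, and *Prdx2* had a log2 fold change of −0.06 (95% interval −0.26 to 0.15). The part of red blood cells in the values of *Gpx1*, *Cat* and *Prdx2* was not tested.

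*Gpx4*, which reduces lipid peroxides within membranes, stood at 7.99, 7.84 and 7.78 in ND against 7.69, 7.83 and 7.71 in HFD. The diets overlapped, and the log2 fold change of −0.12 had an interval from −0.33 to 0.09. *Gpx3*, the secreted plasma form, stood at 4.24, 4.48 and 4.89 in ND against 5.38, 4.46 and 4.87 in HFD, which overlap widely. Its log2 fold change of 0.37 carried an SE of 0.27. The level of *Gpx3* followed the summed level of 5 atrial muscle genes, 7.66, 8.60 and 9.96 in ND and 10.21, 5.83 and 9.22 in HFD, in that the 3 hearts of each diet had the same order on both. The summed level of 6 white adipocyte genes, 1.72, 2.62 and 2.85 in ND and 2.97, −1.18 and 1.62 in HFD, had that order too. Both likenesses were noticed after the values were seen. The part of atrial or adipose tissue in the *Gpx3* values was not tested, and the order of the hearts cannot tell them apart. *Gpx8*, a form of the endoplasmic reticulum, did not overlap between the diets but missed the unadjusted test, with a log2 fold change of −0.17 (95% interval −0.38 to 0.04). *Gpx7* and *Gpx2* had log2 fold changes of 0.07 and 0.00. *Gpx5* and *Gpx6* did not rise well above background in any heart.

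None of the 6 peroxiredoxins or *Srxn1*, which repairs overoxidised peroxiredoxins, passed the unadjusted test. *Prdx3*, the mitochondrial peroxiredoxin, stood at 5.82, 5.79 and 5.73 in ND against 5.70, 5.89 and 5.69 in HFD. The diets overlapped, and the 95% interval of its log2 fold change of −0.02 ran from −0.22 to 0.18. *Prdx5*, found in mitochondria, peroxisomes and cytosol, came nearest to a call: its levels of 6.96, 6.93 and 6.88 in ND and 6.71, 6.87 and 6.69 in HFD did not overlap, and the log2 fold change was −0.17 (95% interval −0.36 to 0.02). The other 5 genes had log2 fold changes from −0.07 to 0.05. Apart from a dim further probe of *Prdx6*, the 95% intervals of all tested probes of these 7 genes lay between −0.36 and 0.28.

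In the thioredoxin system, which supplies peroxiredoxins with electrons, 1 of 6 genes was called, beside 11.98% of all genes. *Txn2*, the mitochondrial thioredoxin, stood at 7.11, 7.08 and 7.11 in ND against 6.94, 6.97 and 6.84 in HFD. The diets did not overlap, and the log2 fold change of −0.19 (SE 0.07, limma adjusted p = 0.375) was the smallest among the called genes. It lost the unadjusted test under 8 of 18 other settings, among them quantile normalization (−0.14) and each ND heart left out. A second *Txn2* probe went the other way without a call (0.15, 95% interval −0.06 to 0.35). That probe is far dimmer (mean level −3.03 in ND and −2.89 in HFD) and carries the name of another transcript. The cytosolic *Txn1* had a log2 fold change of 0.07. *Txnrd1*, its reductase, stood at 3.66, 3.70 and 3.54 in ND against 3.59, 3.84 and 3.70 in HFD, with overlapping diets and an interval from −0.15 to 0.30. The mitochondrial reductase *Txnrd2* had −0.05 and *Txnrd3* 0.00.

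*Txnip*, which binds thioredoxin and blocks it and whose transcript is known to follow glucose, varied more between hearts than any other gene of this system. It stood at 5.89, 5.22 and 5.60 in ND against 4.58, 4.92 and 5.48 in HFD. HFD 1 and HFD 2 were below all ND hearts, while HFD 3 lay within their range. The log2 fold change of −0.58 (SE 0.27) had a 95% interval from −1.25 to 0.09, and a second probe gave −0.45. The difference passed the unadjusted test without HFD 3 (−0.82) or without ND 2 (−0.75), and was −0.09 within the 4 arrays of slide row 2, the HFD array of which is HFD 3. The glutaredoxins *Glrx* and *Glrx2*, which use glutathione to reduce mixed disulfides, had log2 fold changes of −0.01 and −0.10 and were not called.

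None of the 4 genes that make and recycle glutathione passed the unadjusted test. *Gclc*, the catalytic subunit of the rate-limiting ligase, stood at 1.44, 1.56 and 1.48 in ND against 1.35, 1.62 and 1.42 in HFD. *Gclm*, its modifier subunit, stood at −1.11, −0.95 and −1.32 in ND against −1.40, −0.96 and −1.15 in HFD. For both, the diets overlapped throughout, with intervals of the log2 fold change from −0.26 to 0.20 for *Gclc* and from −0.41 to 0.32 for *Gclm*. *Gsr* stood at 2.87, 2.91 and 2.68 in ND against 2.74, 3.09 and 3.03 in HFD. HFD 1 lay within the range of the ND hearts and the other HFD hearts above it, and the 2 probes gave differences of 0.13 and 0.15 without a call. *Gss*, the second enzyme of the synthesis, had −0.04 (95% interval −0.24 to 0.17).

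Of the glutathione S-transferases, 6 of 20 genes tested passed the unadjusted test, and all 6 were lower in HFD. Over all genes 11.98% were called. In the alpha class, known for its activity on lipid peroxidation products, 1 of 4 genes was called. *Gsta3* stood at 2.41, 2.40 and 2.28 in ND against 1.70, 1.99 and 2.06 in HFD by its brightest probe, with every HFD heart below every ND heart. The log2 fold change was −0.45 (SE 0.11, limma adjusted p = 0.262). A second probe, 1.65, 1.72 and 1.57 in ND against 1.0, 1.16 and 1.19 in HFD, gave −0.54 (SE 0.08) and the lowest adjusted p of all members, 0.136. *Gsta4* was not called (−0.10, 95% interval −0.30 to 0.10).

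*Gsta1* and *Gsta2* were not called, and both were picked out after their values were seen. *Gsta1* stood at 2.19, 1.73 and 1.16 in ND against 1.87, 2.60 and 2.05 in HFD, and *Gsta2* at 0.89, 0.43 and −0.12 in ND against 0.71, 1.40 and 0.81 in HFD. The 6 hearts took the same order on both probes, from HFD 2 down to ND 3, and the diets overlapped. The log2 fold changes were 0.48 (95% interval −0.27 to 1.24) and 0.57 (95% interval −0.17 to 1.32). The probes resemble each other: they can be laid side by side over 50 bases with 46 the same. The 30 bases that hold 3 of the 4 differences, in capitals, show how little separates them. They are bases 2 to 31 of the *Gsta1* probe and 12 to 41 of the *Gsta2* probe. The whole probes lie on mm9 at chr9:78090411-78090470 on the plus strand for *Gsta1* and chr9:78178856-78178915 on the minus strand for *Gsta2*.
Gsta1: tggcctctaatGgtttgcaattataaaaAG
Gsta2: tggcctctaatTgtttgcaattataaaaTA
The signals of the 2 transcripts cannot be told apart where each may bind the other's probe, so the pair was not read as 2 separate results. Among 5014 pairs of member probes of different genes, 2 more aligned without a gap over 20 bases or more at 75% or above: *Gstp1* with *Gstp2* (30 of 35 bases) and *Gstm1* with a *Gstm3* probe that was not above background (25 of 27).

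The mu class genes lie side by side on chromosome 3. In the order of their probes there they run *Gstm5*, *Gstm7*, *Gstm6*, *Gstm3*, *Gstm2*, *Gstm1* and *Gstm4*. *Gstm7* stood at 1.47, 1.46 and 1.53 in ND against 1.19, 1.18 and 1.14 in HFD, with a gap between the diets far wider than the spread within either (SD 0.04 and 0.03). It differed by a log2 fold change of −0.32 (SE 0.06, limma adjusted p = 0.196), and its second probe gave −0.32. That probe lost 6 of its 60 spots as outliers, and with them kept it gave −0.21 and was not called. *Gstm6* stood at 0.27, 0.24 and 0.29 in ND against 0.03, −0.81 and −0.38 in HFD. Each HFD heart was below the ND hearts, but they ranged from a small step in HFD 1 to a large one in HFD 2. All 3 *Gstm6* probes gave −0.65 (SE from 0.20 to 0.21, limma adjusted p from 0.323 to 0.334), and without HFD 2 the brightest gave −0.44. After normexp background correction all 3 were still called, but they differed in size, with −0.56 for the brightest, −0.52 and −0.33.

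*Gstm2* was called by both of its dimmer probes and not by its brightest. The brightest stood at 6.07, 6.06 and 6.14 in ND against 5.93, 5.89 and 6.03 in HFD, without overlap, and its log2 fold change of −0.14 had an interval from −0.32 to 0.04. The others gave −0.27 (SE 0.07) and −0.27 (SE 0.08), also without overlap. *Gstm1*, *Gstm3*, *Gstm4* and *Gstm5* were not called by any probe, with log2 fold changes from −0.14 to 0.04. Whether *Gstm7* differed from its neighbour *Gstm5* (95% interval −0.19 to 0.11) in its response was not tested. The brightest *Gstm1* probe is placed by the files on chromosome 5 although it carries the *Gstm1* transcript's name, and the other *Gstm1* probe, on chromosome 3, gave a like value (0.03 against 0.04).

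**Figure D3:**
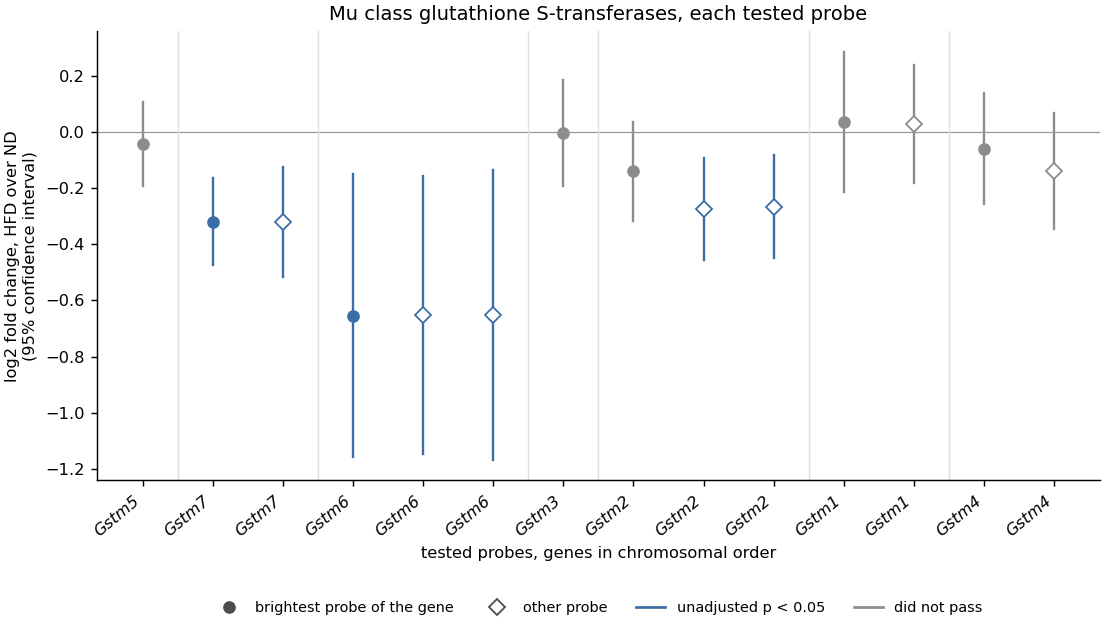
The log2 fold change of HFD over ND for every tested probe of the 7 mu class genes, in chromosomal order from left to right, with 95% confidence intervals. All probes of *Gstm7* and *Gstm6* and both dimmer probes of *Gstm2* are called lower (blue), and the brightest *Gstm2* probe and those of *Gstm5*, *Gstm3*, *Gstm1* and *Gstm4* are not (grey).

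Of the other transferase classes, 3 of 9 genes tested were called, all lower, beside 11.98% of all genes called in either direction. *Gstk1*, a transferase of mitochondria and peroxisomes, stood at 6.02, 5.97 and 5.94 in ND against 5.71, 5.65 and 5.65 in HFD. The hearts of each diet lay close together (SD 0.04 and 0.03, n = 3) and far from the other diet, and the log2 fold change was −0.31 (SE 0.06, limma adjusted p = 0.213). The omega class, which reduces dehydroascorbate, gave smaller or less even differences. *Gsto2* stood at 0.13, 0.04 and −0.23 in ND against −0.53, −0.28 and −0.31 in HFD, which did not overlap, but ND 3 lay near the HFD hearts. Its log2 fold change of −0.35 (SE 0.12, limma adjusted p = 0.367) lost the unadjusted test under 7 of 18 other settings. *Gsto1* stood at 7.10, 7.08 and 6.96 in ND against 6.75, 6.97 and 6.63 in HFD, with a log2 fold change of −0.26 (SE 0.11, limma adjusted p = 0.414), and is the called gene with overlapping diets. It too lost the unadjusted test under 7 of 18 other settings, and gave −0.42 with the slide row as a term.

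*Gstz1*, which acts in tyrosine breakdown, just missed the test (−0.20, 95% interval −0.40 to 0.01) without overlap between the diets. The pi class genes *Gstp1* and *Gstp2* had −0.09 and −0.07. The theta class was not called either: *Gstt1* had 0.20 (95% interval −0.11 to 0.51), *Gstt2* −0.03 and *Gstt3* −0.06, and *Gstt4* did not rise well above background in any heart.

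NRF2 and its partner were measured with wide intervals. *Nfe2l2* stood at 3.90, 3.95 and 3.56 in ND against 3.94, 4.10 and 3.76 in HFD, and *Keap1* at 3.35, 3.34 and 2.98 in ND against 3.28, 3.38 and 3.44 in HFD. For both, the diets overlapped and ND 3 was the lowest heart. The log2 fold changes were 0.13 (95% interval −0.21 to 0.47) and 0.14 (95% interval −0.16 to 0.44). *Nqo1*, a quinone reductase and classical NRF2 target, stood at 2.47, 2.36 and 2.18 in ND against 2.21, 2.96 and 2.67 in HFD. HFD 2 and HFD 3 were above all ND hearts and HFD 1 was not, with a log2 fold change of 0.28 (SE 0.20), or 0.48 and past the unadjusted test without HFD 1. *Hmox1*, the inducible heme oxygenase, stood at 1.06, 1.2 and 1.1 in ND against 1.43, 1.58 and 1.0 in HFD. Its log2 fold change of 0.22 (SE 0.16) was −0.12 with the slide row as a term, 0.39 and past the unadjusted test without HFD 3, and −0.39 (SE 0.38) by a second, dimmer probe, so that no direction can be given. The constitutive *Hmox2* had −0.11 (95% interval −0.29 to 0.07).

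**Figure D4:**
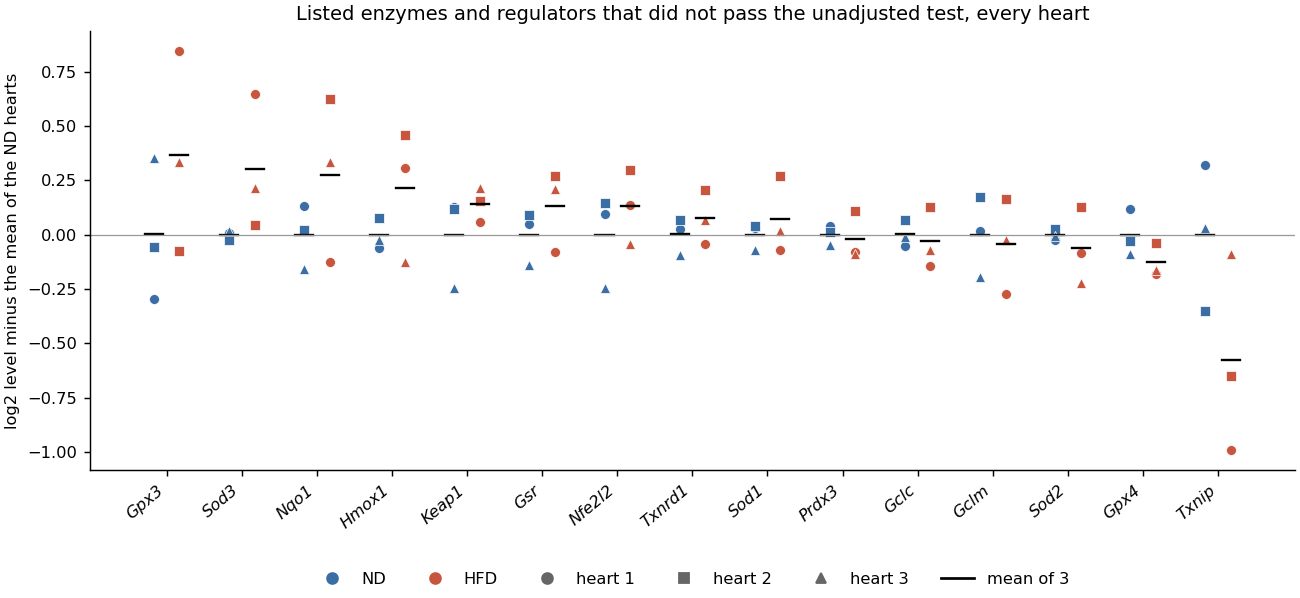
The level of 15 enzymes and regulators that did not pass the unadjusted test, in every heart on the log2 scale, as the distance from the mean of the 3 ND hearts (blue ND, red HFD, a shape for each heart number, black lines for means). The HFD points of each gene but *Sod3* overlap the ND points, and *Txnip*, *Gpx3*, *Nqo1* and *Sod3* have the widest spread among the HFD hearts.

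NRF2 binds antioxidant response elements, whose core was searched as TGACNNNGC on both strands of the 300 bases around the start of each gene (250 before and 50 after, RefSeq, build GRCm38.p6). Of the 72 members, 62 had such a window, and 13 of these (21.0%) held the core, against 14.0% of all 27025 genes with a window. The match is shown in capitals with 10 bases to either side, read along the gene, for the called genes that have one and for 4 enzymes known as NRF2 targets that were not called.
Gsta3, chr1:21240454-21240482: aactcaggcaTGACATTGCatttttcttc
Gstm7, chr3:107931725-107931753: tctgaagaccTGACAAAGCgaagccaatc
Gclm, chr3:122245413-122245441: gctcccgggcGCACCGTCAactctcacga
Prdx1, chr4:116685456-116685484: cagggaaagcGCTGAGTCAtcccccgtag
Srxn1, chr2:152105542-152105570: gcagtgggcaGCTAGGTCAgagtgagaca
Txnrd1, chr10:82859104-82859132: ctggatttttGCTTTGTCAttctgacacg
*Gsta3*, *Gclm*, *Prdx1*, *Srxn1* and *Txnrd1* are read from the plus strand of the genome and *Gstm7* from the minus strand. The match of *Srxn1* lies after the start of the gene, the others before it. The core reads forward in *Gsta3* and *Gstm7* and as its reverse complement in the other 4. Of the 9 called genes, 9 had a window and 2 held the core. These 2 were lower in HFD (log2 fold change −0.45 for *Gsta3* and −0.32 for *Gstm7*), whereas *Gclm*, *Prdx1*, *Srxn1* and *Txnrd1* had log2 fold changes from −0.05 to 0.08 without a call. A match of these letters is a description and not a binding site.

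The rule by name also took 14 genes that carry a thioredoxin-like name, many of which fold proteins or splice RNA and are no peroxide enzymes. Of these, 11 were tested and 0 passed the unadjusted test, with log2 fold changes from −0.08 to 0.27. *Txnl1* was the farthest from 0 (0.27, 95% interval −0.05 to 0.59) and did not overlap between the diets. *Txndc2*, *Txndc6* and *Txndc8*, and with them *Gpx5*, *Gpx6*, *Gstt4* and the pseudogene *Prdx6-ps1*, were the 7 members not tested, and of these *Txndc2* alone was well above background, on 1 array.

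Genes around the members were read in 5 lists. These were chosen with earlier results of these data known, so that their shares describe the lists and test nothing. Of 22 genes tested that handle glutathione or its precursors, 1 was called higher and 6 lower, a share of 31.8% beside 11.98% of all genes. The leading ones supply or use sulfur amino acids: *Cth*, which releases cysteine from cystathionine, stood at −1.1, −1.56 and −0.66 in ND against −3.0, −3.01 and −2.87 in HFD. The gap between the diets was wider than the whole spread of the ND hearts, and the log2 fold change was −1.85 (SE 0.22, limma adjusted p = 0.0888). *Gnmt*, which consumes S-adenosylmethionine, had −0.97 (SE 0.15, limma adjusted p = 0.135). *Cbs*, the enzyme before *Cth*, had −0.60 (SE 0.15, limma adjusted p = 0.260). All 3 genes were lower in every HFD heart than in any ND heart.

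A further list was drawn up for the supply of NADPH, the electron source of *Gsr* and the thioredoxin reductases. Which cofactor each listed enzyme uses in these hearts, *Mthfd2* and *Me2* among them, was not measured. Of its 14 genes tested, 2 were called higher and 1 lower. This share of 21.4% stands beside 11.98% of all genes. *Mthfd2*, a mitochondrial folate enzyme, stood at −2.43, −2.65 and −2.86 in ND against −1.23, −1.11 and −1.42 in HFD. Every HFD heart was above every ND heart, with a log2 fold change of 1.39 (SE 0.14, limma adjusted p = 0.0784). *Me1*, the cytosolic malic enzyme, had 0.34 (SE 0.11), and the mitochondrial *Me2* had −0.24 (SE 0.09). Of 16 genes that produce reactive oxygen, 2 were called higher and 2 lower, a share of 25.0% beside the same 11.98%. They were led by monoamine oxidase B (*Maob*, 0.36, SE 0.08), xanthine dehydrogenase (*Xdh*, −0.51, SE 0.13) and the oxidase organiser *Noxo1* (0.42, SE 0.12).

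Of 21 other NRF2 targets tested, 1 was called higher and 2 lower, a share of 14.3% beside 11.98% of all genes. They were aldehyde oxidase (*Aox1*, 0.44, SE 0.12), *Osgin1* (−0.40, SE 0.14) and biliverdin reductase A (*Blvra*, −0.19, SE 0.07). Of 29 other antioxidant, thiol and selenium proteins, 0 were called higher and 4 lower, a share of 13.8%. The leading 3 were sestrin 1 (*Sesn1*, −0.50, SE 0.14), the methionine sulfoxide reductase *Sepx1* (−0.32, SE 0.09) and the membrane thioredoxin-like *Tmx1* (−0.31, SE 0.08). None of the genes of the 5 lists passed limma's adjustment.

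The arrays shared 1 slide, on which row 1 held HFD 1 and HFD 2 while row 2 held HFD 3 and the ND arrays, so that the row could be separated from the diet only through HFD 3. With the slide row as a term, 10 member probes passed the unadjusted test, 2 higher and 8 lower. *Cat* (0.46), *Gpx1* (−0.54), *Gstk1* (−0.32), *Gstm7* (−0.35), *Gsto1* (−0.42) and *Txn2* (−0.26) were still called by their brightest probes, and so was *Gsta3* by its second probe (−0.46) but not its brightest (−0.31). *Gstm6* (−0.65) and *Gsto2* (−0.29) were not. Cardiomyocyte markers were at a like summed level on all arrays (11.79 to 11.82 in ND and 11.63 to 11.89 in HFD), and of 5 liver markers *Alb*, *Apoa1* and *Fgb* were not well above background on any. The other 2, *Ttr* (−0.86) and *Serpina1a* (0.75), were called in opposite directions, with a summed level of −2.10 to −1.73 in ND and −1.79 to −1.35 in HFD. Of 8 skeletal muscle markers, 4 were tested, and their summed level was lower in HFD (7.10 to 7.17 against 7.63 to 7.76). *Acta1* (mean 6.61 in ND and 5.69 in HFD) and *Ckm* (6.69 and 6.43) made up most of that sum, while *Tnni2* and *Tnnt3* added little. *Myh1*, *Myh2*, *Myh4* and *Mylpf* were well above background on 2 arrays at most. Whether the *Acta1* and *Ckm* signal came from skeletal or heart muscle was not tested. White adipocyte markers ranged from 1.72 to 2.85 in ND and from −1.18 to 2.97 in HFD, with HFD 2 the lowest. Their part in the results was not tested.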

How the data were processed

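Heart RNA was hybridised to 1-colour (Cy3) Agilent arrays, 1 per heart. The authors deposited a linear intensity for each spot, with background and spatial trend subtracted by Feature Extraction 10.7.1.1 (10.7 in the submitters' processing notes) and nothing normalized between arrays. The deposited mean and background brightness, also an intensity, served the alternative background correction. A table of log2 values that the authors deposited was an alternative. Its columns matched their own arrays in rank (Spearman's rho 1, and no more than 0.954 with another array), and every column has a median of 4.557. The table carries the authors' own normalization, the steps of which are not given in the sources used here. No columns of comparisons were used.

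Control spots and 127 to 190 outlier spots per array were left out. Of the member probes, 3 lost spots by this (*Gsta4*, 1 of *Gstm7* and *Prdx3*, 15 spots in all), and all kept a value on each array. No spot was saturated. The log2 intensity minus the 75th percentile of the array was fitted in limma 3.58.1 (lmFit, eBayes, two-sided) under R 4.3.3 for 27590 probes. These were well above background on all arrays of ND, of HFD or of both, and had a value on 2 or more arrays per diet, with Benjamini-Hochberg adjustment over all of them. Intervals are limma's 95% confidence intervals. The arrays had from 49.2% to 52.9% of their probes well above background, the 75th percentile lay between 453.3 and 543.6, and 3 arrays per group limit the precision. The hearts are separate mice by the study's methods, and arrays of a group correlated at 0.990 to 0.995.

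The brightest tested probe (highest mean level) stands for a gene, and 19 members had more than 1 tested probe. Values in every heart are given for 17 enzymes and regulators. They are also given for the genes of the at most 15 member probes of lowest p under 0.05, though not for each of their probes. From the lists, at most 3 genes by p are named. *Prdx5* and *Gsto1*, outside that rule, were also given by heart after their values were seen. Other genes outside it are said to be chosen in that way, or follow as summaries. The members and lists were chosen with earlier results of these data known. Gene names are those of the array's design. Promoter windows were matched through RefSeq accessions or symbols (71 of 72 genes matched, 62 with a window). Alternatives were normexp (offset 50), quantile normalization, the authors' table, 2 other filters on dim probes, outlier spots kept, robust variances with an intensity trend, weights for arrays, the methods' t-test, the replicate number as a block, the slide row as a term or row 2 alone, the average of a gene's probes, and each heart left out. The code was tested on simulated data. Packages were jsonlite 2.0.0, statmod 1.5.0 and data.table (version 1.17.8) in R, and pandas 2.3.3 and matplotlib 3.10.9 were used under Python 3.11.15.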

Additional observations from a re-analysis of the deposited data

How the results depend on the processing

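With the slide row as a term, 10 member probes passed the unadjusted test (8 lower), against 16 (14 lower) as reported. With 1 heart left out at a time the count ran from 12 to 21, with 2 to 4 higher and 9 to 17 lower: 4 were higher without ND 1 and without HFD 2, and 9 lower without ND 3. Over the other settings the count ran from 14 to 20, and none past the adjustment in any. The median log2 fold change of the member genes ran from −0.07 (without HFD 2) to −0.01 (quantile normalization and without HFD 1). With the replicate block 14 member probes were called, 12 of them lower. The replicate numbers were not treated as pairs, since the deviations of same-numbered hearts correlated at −0.15, 0.15 and 0.19. The methods' t-test called 14 at an unadjusted p below 0.05 and 0 after adjustment. Over all probes, 3275 were called as reported, 2136 with the slide row as a term and 2156 without ND 1.

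Of the uncalled listed genes, 7 took the other sign somewhere, always without a call: *Sod2* by quantile normalization (0.0265) and the authors' table (0.0262), *Prdx3* in the same ways (0.0283 and 0.0261), and *Nfe2l2* (−0.0420) and *Hmox1* (−0.122) with the slide row as a term and, by the same values, within slide row 2. With 1 heart left out, *Sod2* ran from −0.151 to 0.0247, *Prdx3* from −0.0846 to 0.0181, *Sod1* from −0.0226 to 0.144, *Gclc* from −0.107 to 0.0254 and *Gclm* from −0.150 to 0.0700. The cause was not tested. Among the called genes, *Txn2* was lost under 8 of 18 settings and *Gsto1* and *Gsto2* under 7 each, and *Gstm6* by its brightest probe under 3. Normexp and an intensity trend with robust variances moved the number of all probes past the adjustment from 4 to 40 and 81, with 0 members among them. Of 101 member probes, 87 were well above background on all 6 arrays, and nothing can be said here of the 12 that were not tested.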
